A study of Mus musculus with 6 samples.

Results

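The genes described here are those of the core TGF-beta pathway: the ligand genes *Tgfb1*, *Tgfb2* and *Tgfb3*, the receptor genes *Tgfbr1*, *Tgfbr2* and *Tgfbr3*, the intracellular genes *Smad3* and *Smad7*, and the target gene *Tgfbi*. They were chosen by name and role, with earlier results of these data known, and are 9 of the 24062 genes counted in the series. Counts of members set beside shares of all genes are therefore a description. All 9 passed the filter on low counts. They were measured by bulk RNA-seq in 6 mouse libraries. In 3 libraries the mice were Nf1fl/fl;DhhCre, with *Nf1* floxed and Cre recombinase driven by the *Dhh* promoter, and the labelled tissue was dorsal root ganglion (DRG). In the other 3 the mice also carried floxed *Runx1* and *Runx3* (labelled Rx1flfl;Rx3fl/fl;DhhCre, called double knockout here), and the labelled tissue was neurofibroma tumor. The study's methods give Nf1fl/fl;DhhCre for both groups and describe the tissue of both as DRG/tumors, so genotype and labelled tissue cannot be told apart. The strain background was C57BL/6-I129 throughout, and the age of these mice is not given in the sources used here. *DhhCre* deletes floxed alleles in the Schwann cell (SC) lineage, so other cells of the tissue kept intact copies. Nothing in the labels says whether libraries came from littermates. The p-values compare each group difference with the spread between these libraries, estimated with information shared across genes.

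TGF-beta ligands are secreted in a latent form that is held in the extracellular matrix and released by integrins and other activators. The active ligand binds the type II receptor TGFBR2, which recruits and phosphorylates the type I receptor TGFBR1, and TGFBR1 in turn phosphorylates SMAD2 and SMAD3, which enter the nucleus with SMAD4. TGFBR3 (betaglycan) presents ligand to the signaling receptors, SMAD7 is an inhibitor induced by the pathway itself, and *Tgfbi* encodes a secreted matrix protein named for its induction by TGF-beta. In peripheral nerve and its tumors, SCs, fibroblasts and macrophages are all known sources or responders.

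Total counts per library were between 12439296 and 16682194. In CPM (counts scaled to a common library total after TMM normalization), *Runx1* values were 131, 141 and 172 CPM in Nf1fl/fl;DhhCre, against 84.0, 78.9 and 185 CPM in double knockout. The highest value was thus in the library labelled double knockout replicate 3. Cells outside the SC lineage kept intact *Runx1*, so bulk values do not test the genotype label of that library. By its label that library also came from another sequencing run than the other 5, although titles and tables exchange the mouse numbers of double knockout replicates 2 and 3. *Runx3* was at 19.9, 15.1 and 29.9 CPM against 13.5, 10.3 and 12.1 CPM. Skeletal muscle transcripts set replicate 2 of each group apart, with 9 markers summing to 19025 and 48203 CPM there and to between 93.8 and 574 CPM in the other libraries. Values without these libraries are given beside the member results whose call they change.

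Sequence upstream of the transcription start is shown for the called members and for *Tgfb2*, the other member with a match to the motif searched, since RUNX proteins bind DNA at a short core motif and the groups differ in floxed *Runx1* and *Runx3*. RefSeq promoters (GRCm38.p6) were used for 6 of the 9 members, and *Tgfb3*, *Tgfbr3* and *Smad7* had no entry. For *Tgfbr1*, which has 2 annotated starts, the first is shown. The RUNX short core TGTGG was searched on both strands in the 250 bases before each start, together with the longer forms TGTGGT (which contains it) and TGCGGT. Capitals mark matches to any of these, read as CCACA on the opposite strand, and each sequence is written 5′ to 3′ on the strand of its gene. Bases inside the annotated gene were left out, which shortened *Tgfbi* to 187 bases.
Tgfb1, chr7:25686752-25687001, plus strand: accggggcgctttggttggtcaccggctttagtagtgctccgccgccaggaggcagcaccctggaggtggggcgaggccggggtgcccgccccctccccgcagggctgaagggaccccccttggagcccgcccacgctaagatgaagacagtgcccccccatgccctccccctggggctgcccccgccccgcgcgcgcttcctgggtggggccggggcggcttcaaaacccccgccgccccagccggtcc
Tgfb2, chr1:186705990-186706239, minus strand: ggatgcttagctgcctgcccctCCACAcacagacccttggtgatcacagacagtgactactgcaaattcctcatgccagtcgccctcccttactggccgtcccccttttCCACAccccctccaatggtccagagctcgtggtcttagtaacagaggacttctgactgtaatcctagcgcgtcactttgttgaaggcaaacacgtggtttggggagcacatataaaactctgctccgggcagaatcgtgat
Tgfbr1, chr4:47352972-47353221, plus strand: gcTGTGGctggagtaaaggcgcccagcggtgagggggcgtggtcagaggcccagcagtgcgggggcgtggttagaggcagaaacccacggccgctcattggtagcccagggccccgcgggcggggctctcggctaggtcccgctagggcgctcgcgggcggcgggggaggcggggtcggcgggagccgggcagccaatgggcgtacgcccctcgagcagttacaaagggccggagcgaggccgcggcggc
Tgfbi, chr13:56609336-56609522, plus strand: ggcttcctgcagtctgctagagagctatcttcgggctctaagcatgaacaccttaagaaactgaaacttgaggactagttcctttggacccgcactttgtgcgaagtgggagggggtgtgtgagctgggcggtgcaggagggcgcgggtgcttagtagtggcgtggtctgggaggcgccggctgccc

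The *Tgfb2* window held 2 matches to TGTGG, starting 228 and 141 bases upstream, and the *Tgfbr1* window held 1 match, starting 248 bases upstream. The windows of *Tgfb1*, *Tgfbr2*, *Smad3*, *Tgfbi* and the second start of *Tgfbr1* held none, so 2 of 7 member windows held TGTGG, beside 49.3% of 32851 promoter windows of 250 bases. Neither TGTGGT (14.0% of windows) nor TGCGGT (5.10%) was found in the windows of the members. The SMAD element CAGAC, found in 42.2% of windows, had 2 matches each in *Tgfb2* and *Tgfbi* and 1 each in *Tgfbr2* and the second start of *Tgfbr1*, counting both strands. A match describes the letters only, and no binding was measured in these data.

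In the libraries labelled double knockout, 3 members were called lower, by adjusted p together with a change of more than 2-fold: the ligand gene *Tgfb1*, the receptor gene *Tgfbr1* and the target gene *Tgfbi*. None rose, and none was higher at an unadjusted p below 0.05. Among all 15652 genes tested, 5.36% were called lower and 8.03% higher by the same rule (adjusted p below 0.05 and more than 2-fold, limma-voom with Benjamini-Hochberg adjustment). With adjusted p alone, 4 of 9 members were lower, *Tgfbr2* being added, beside 8.22% of all genes. The highest double-knockout library lay below the lowest Nf1fl/fl;DhhCre library for 7 of 9 members, beside 20.5% of all genes. The median log2 fold change was -0.97 over the members and 0.02 over all genes tested, and 8 of 9 members had a negative value. Without double knockout replicate 3, which leaves libraries of a single sequencing run by the labels, *Tgfbr1* (-1.59, adjusted p = 0.0329) and *Tgfbi* (-1.99, adjusted p = 0.0242, limma-voom) were called, and *Tgfb1* was not (-1.51, adjusted p = 0.0518). Without double knockout replicate 2 the same members were called, and *Tgfb1* was not (-1.18, adjusted p = 0.0670, limma-voom). The number of members called was 1 (*Tgfbi*) without Nf1fl/fl;DhhCre replicate 1 and 5 without Nf1fl/fl;DhhCre replicate 2. Without Nf1fl/fl;DhhCre replicate 1, the genes called over the whole series also fell, from 2096 to 362.

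**Figure D1:**
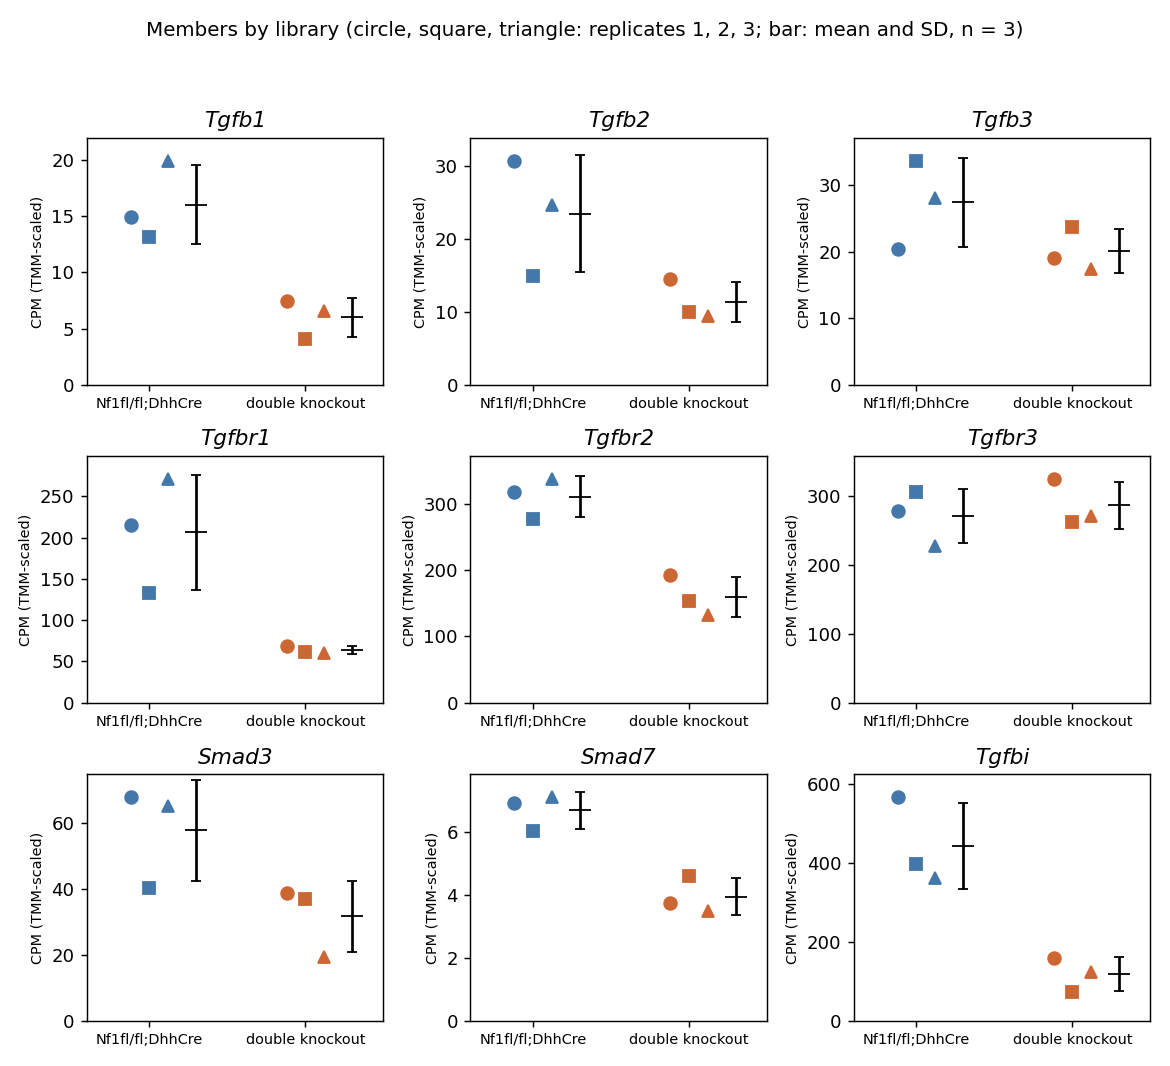
Each panel plots 1 member, with CPM per library on the vertical axis from 0 and the genotype on the horizontal axis. Points are single libraries and black bars are the mean with SD (n = 3). The groups overlap for *Tgfb3* and *Tgfbr3* and are apart for the other 7 members.

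Among the ligands, *Tgfb1* (chromosome 7, 25687002 to 25705077, GRCm38) was at 14.9, 13.2 and 19.9 CPM in Nf1fl/fl;DhhCre and at 7.41, 4.03 and 6.54 CPM in double knockout. Every double-knockout library was below every Nf1fl/fl;DhhCre library, on 49 to 99 counts against 215 to 311. *Tgfb1* had a log2 fold change estimated at -1.42 (SE 0.30, adjusted p = 0.0222, limma-voom), a 2.68-fold lower level. The call was close to the threshold and was lost when Nf1fl/fl;DhhCre replicate 1 (adjusted p = 0.0663), Nf1fl/fl;DhhCre replicate 3 (0.0549), double knockout replicate 2 (0.0670) or double knockout replicate 3 (0.0518) was left out, with estimates between -1.53 and -1.18 over all 6 omissions. *Tgfb1* is the isoform most often linked to fibrosis and immune regulation.

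*Tgfb2* (chromosome 1, 186622792 to 186705989) was at 30.8, 14.9 and 24.8 CPM in Nf1fl/fl;DhhCre and at 14.5, 10.03 and 9.44 CPM in double knockout. The ranges did not overlap, but the gap was small, between 14.9 CPM in the muscle-rich Nf1fl/fl;DhhCre replicate 2 and 14.5 CPM in double knockout replicate 1. *Tgfb2* had a log2 fold change estimated at -1.01 (SE 0.34, 95% interval -1.80 to -0.22, adjusted p = 0.0755, limma-voom) and did not pass. Without Nf1fl/fl;DhhCre replicate 2 it was -1.28 and passed (adjusted p = 0.0184, limma-voom), and it also passed without both muscle-rich libraries (-1.24, adjusted p = 0.0464). TGF-beta2 is the isoform that depends most on TGFBR3 for binding to its signaling receptors.

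*Tgfb3* (chromosome 12, 86056745 to 86079041) was at 20.5, 33.7 and 28.1 CPM in Nf1fl/fl;DhhCre and at 19.1, 23.8 and 17.4 CPM in double knockout. The groups overlapped, with Nf1fl/fl;DhhCre replicate 1 below double knockout replicate 2. *Tgfb3* had a log2 fold change estimated at -0.45 (SE 0.23, 95% interval -0.996 to 0.10, adjusted p = 0.220, limma-voom). The interval reaches from just short of a 2-fold decrease to a slight increase. Exons of 2 antisense gene models overlap 163 and 257 bases of *Tgfb3*, 1 antisense model overlaps 124 bases of *Tgfb2*, and 1 model on the same strand overlaps 297 bases of *Tgfbr3*. Whether reads were counted by strand is not given, so reads from these stretches are uncertain in origin.

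The receptor genes divided in the same comparison. *Tgfbr1* (chromosome 4, 47353222 to 47414931) was at 215, 133 and 271 CPM in Nf1fl/fl;DhhCre and at 69.3, 62.0 and 60.8 CPM in double knockout. The double-knockout libraries were close together while the Nf1fl/fl;DhhCre libraries spread widely, and the groups were far apart. *Tgfbr1* had a log2 fold change estimated at -1.63 (SE 0.27, adjusted p = 0.0127, limma-voom), a 3.09-fold lower level. Without Nf1fl/fl;DhhCre replicate 1 it was -1.54 and missed the threshold (adjusted p = 0.0568, limma-voom).

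*Tgfbr2* (chromosome 9, 116084293 to 116175360) was at 317, 277 and 338 CPM in Nf1fl/fl;DhhCre and at 193, 153 and 133 CPM in double knockout. The groups did not overlap. *Tgfbr2* had a log2 fold change estimated at -0.97 (SE 0.16, adjusted p = 0.0127, limma-voom), lower by adjusted p and 1.97-fold in size, just under the fold threshold. It passed that threshold without Nf1fl/fl;DhhCre replicate 2 (-1.01, adjusted p = 0.0161) and without double knockout replicate 1 (-1.08, adjusted p = 0.0135, limma-voom). Adjusted p rose above 0.05 without Nf1fl/fl;DhhCre replicate 1 (-0.93, adjusted p = 0.0611) and without Nf1fl/fl;DhhCre replicate 3 (-0.87, adjusted p = 0.0507, limma-voom).

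*Tgfbr3* (chromosome 5, 107106570 to 107289629) did not follow the other receptor genes. It was at 279, 307 and 228 CPM in Nf1fl/fl;DhhCre and at 326, 263 and 271 CPM in double knockout, with overlapping ranges. *Tgfbr3* had a log2 fold change estimated at 0.08 (SE 0.15, 95% interval -0.27 to 0.44, adjusted p = 0.735, limma-voom), so a 2-fold change in either direction lies outside the interval. A test of the difference between the *Tgfbr3* and *Tgfbr1* changes was not made.

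**Figure D2:**
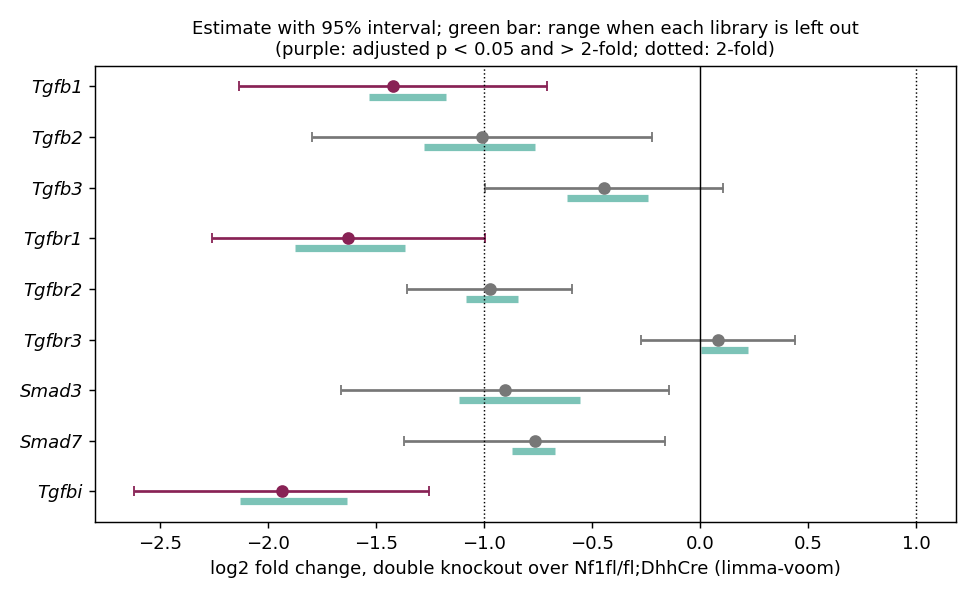
The horizontal axis is the log2 fold change of double knockout over Nf1fl/fl;DhhCre, with the 95% interval as a thin bar and the range when each of the 6 libraries was omitted in turn as a green bar. *Tgfb1*, *Tgfbr1* and *Tgfbi* (purple) lie beyond the 2-fold line and *Tgfbr3* lies at 0.08.

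Levels of different genes were compared as CPM per kilobase of exon. Among the receptors in Nf1fl/fl;DhhCre, *Tgfbr3* was at 41.5 ± 6.08, *Tgfbr2* at 38.0 ± 3.76 and *Tgfbr1* at 31.6 ± 10.6 CPM per kb (SD, n = 3), an order in which neighbours did not differ beyond their spread. In double knockout *Tgfbr3* was at 43.8 ± 5.17, *Tgfbr2* at 19.5 ± 3.72 and *Tgfbr1* at 9.80 ± 0.707 CPM per kb (SD, n = 3), with no overlap between neighbours. *Tgfbr3* thus made up 37.3%, 46.4% and 29.6% of the summed receptor level in the Nf1fl/fl;DhhCre libraries and 59.3%, 58.8% and 61.9% in the double-knockout libraries. The share of *Tgfbr1* was 28.8%, 20.1% and 35.3% against 12.6%, 13.9% and 13.9%. Both shares were apart between the groups, and no test was made of them.

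Among the ligands per kilobase, *Tgfb3* was the highest in both groups, at 8.11 ± 1.97 and 5.94 ± 0.970 CPM per kb (SD, n = 3). *Tgfb2* was at 4.06 ± 1.39 and 1.96 ± 0.478 CPM per kb, and *Tgfb1* at 3.18 ± 0.698 and 1.19 ± 0.348 CPM per kb (SD, n = 3). *Tgfb2* and *Tgfb1* overlapped in Nf1fl/fl;DhhCre and did not in double knockout. The share of *Tgfb3* in the summed ligand level was 42.2%, 65.8% and 50.2% against 58.7%, 73.5% and 63.8%, and these ranges overlapped. The share of *Tgfb1* did not overlap, at 20.6%, 17.2% and 23.9% against 15.3%, 8.36% and 16.0%, and that of *Tgfb2* did, at 37.1%, 17.0% and 25.9% against 26.0%, 18.1% and 20.2%. No test was made of the ligand shares. The receptors were at higher levels per kilobase than the ligands in each library.

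**Figure D3:**
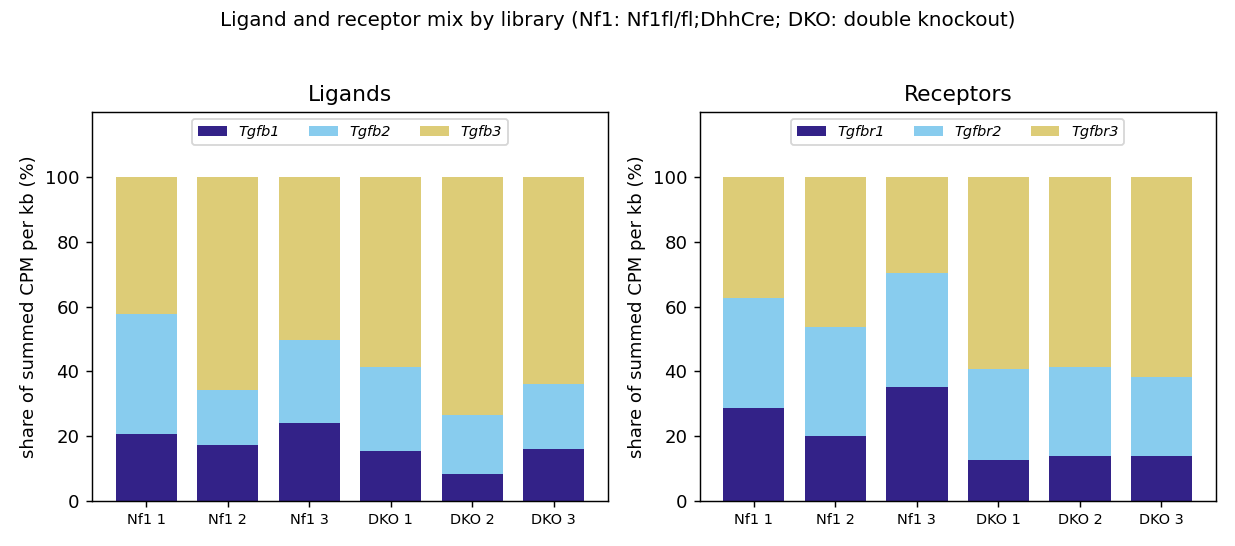
Stacked bars give the share (%) of each gene in the summed CPM per kb of the ligands (left) and receptors (right) in each of the 6 libraries. *Tgfbr3* holds 29.6% to 46.4% of the receptor level in Nf1fl/fl;DhhCre and 58.8% to 61.9% in double knockout, while among the ligands the *Tgfb1* shares are apart and the *Tgfb2* and *Tgfb3* shares overlap.

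*Smad3* (chromosome 9, 63646767 to 63757994), a receptor-activated SMAD, was at 67.8, 40.2 and 64.9 CPM in Nf1fl/fl;DhhCre and at 38.7, 37.0 and 19.3 CPM in double knockout. The lowest Nf1fl/fl;DhhCre library lay just above the highest double-knockout library. *Smad3* had a log2 fold change estimated at -0.91 (SE 0.32, 95% interval -1.66 to -0.15, adjusted p = 0.0911, limma-voom), which did not pass. Without double knockout replicate 3, its lowest library, it was -0.56 (adjusted p = 0.220, limma-voom).

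*Smad7* (chromosome 18, 75367529 to 75395935) had the lowest mean level of the members in both groups, at 6.94, 6.02 and 7.12 CPM in Nf1fl/fl;DhhCre and at 3.75, 4.61 and 3.50 CPM in double knockout. These rested on 100, 101 and 111 counts against 47, 56 and 53 counts, without overlap in CPM. In double knockout replicate 2 *Tgfb1*, at 4.03 CPM, was below it. *Smad7* had a log2 fold change estimated at -0.77 (SE 0.26, 95% interval -1.37 to -0.16, adjusted p = 0.0779, limma-voom), which did not pass. With DESeq2, *Smad7* (adjusted p = 0.0363) and *Smad3* (adjusted p = 0.0402) were below 0.05, as was *Smad3* with sample quality weights (adjusted p = 0.0459), all still under 2-fold.

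The target gene *Tgfbi* (chromosome 13, 56609523 to 56639562) had the largest change of the 9, and in Nf1fl/fl;DhhCre the highest level per kilobase (118 ± 29.0 CPM per kb, SD, n = 3). In double knockout, at 31.5 ± 11.4 CPM per kb (SD, n = 3), its level was below that of *Tgfbr3*. It was at 568, 398 and 364 CPM in Nf1fl/fl;DhhCre and at 159, 74.1 and 123 CPM in double knockout. The lowest Nf1fl/fl;DhhCre library was more than 2-fold above the highest double-knockout library. *Tgfbi* had a log2 fold change estimated at -1.94 (SE 0.29, 95% interval -2.62 to -1.25, adjusted p = 0.0108, limma-voom), a 3.83-fold lower level. Its call held whichever 1 of the 6 libraries was omitted, with adjusted p between 0.0112 and 0.0478.

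The called members were lower in the same group as markers of some other cells, while other marker lists did not move with them. In bulk tissue, fewer cells of a type and less RNA per cell cannot be told apart. Of 13 macrophage markers tested, 11 were called lower, and their summed level was between 1415 and 2933 CPM in Nf1fl/fl;DhhCre and between 243 and 575 CPM in double knockout. Of 9 fibroblast markers, 6 were called lower, with sums of 9438 to 10080 CPM against 3492 to 5782 CPM. The T and NK cell list summed to 24.4 to 64.8 CPM against 4.36 to 7.65 CPM, with 2 of 8 tested markers called lower. In the other direction, 13 of 13 sensory neuron markers (1274 to 2604 CPM against 6333 to 14292 CPM) and 9 of 10 myelinating SC markers (5194 to 6052 CPM against 11419 to 14912 CPM) were called higher. General SC markers summed to 1422 to 1658 CPM against 1433 to 1942 CPM, with 2 of 8 called higher. None of 7 mast cell, 8 endothelial, 7 mural or 9 skeletal muscle markers was called. Of 6 perineurial markers 1 was called lower. Of 6 non-myelinating SC markers 2 were called higher and 1 lower, and of 6 satellite glia markers 1 was called in each direction. Of all genes tested, 5.36% were called lower and 8.03% higher. Every macrophage, fibroblast, neuron and SC marker that was tested had counts above 0 in each library. The sensory neuron markers were thus higher in the group whose labelled tissue is tumor than in the group labelled DRG, against the direction of the tissue labels. The part of these cells in the member changes was not tested.

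**Figure D4:**
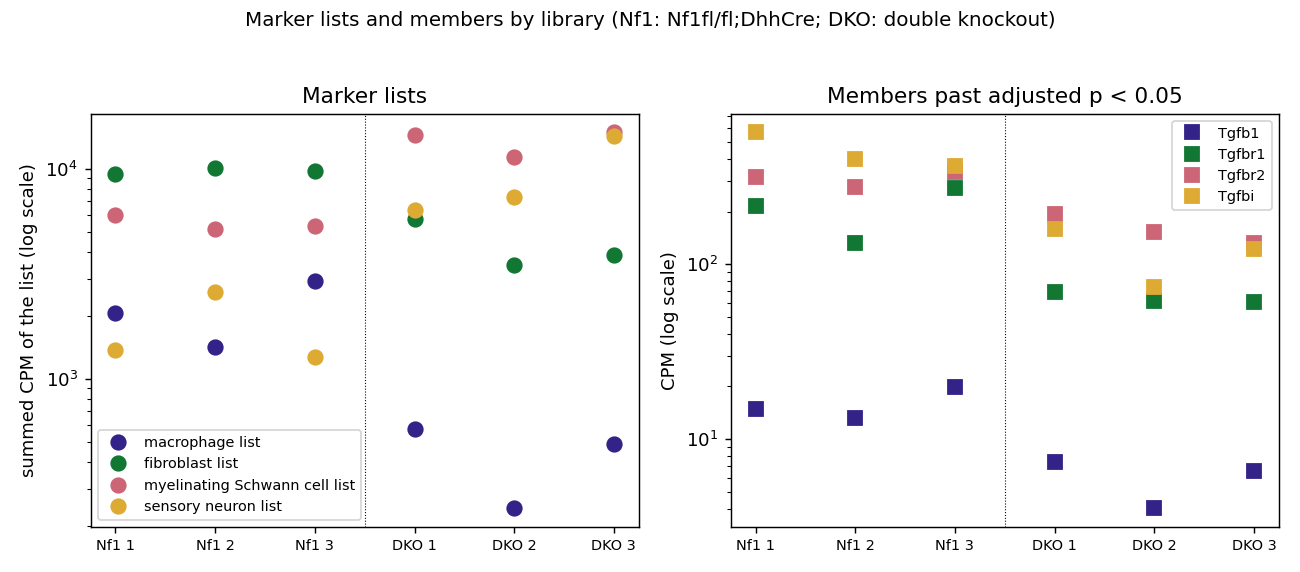
Summed CPM of 4 marker lists (left) and CPM of the 4 members with adjusted p below 0.05 (right) are plotted by library on log axes. Macrophage and fibroblast lists and the 4 members are lower in each double-knockout library than in any Nf1fl/fl;DhhCre library, and the neuron and myelinating SC lists are higher.

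Across the 6 libraries, log2 CPM of *Tgfb1* and *Tgfbr1* had r = 0.94, *Tgfbr1* and *Tgfbr2* r = 0.95, and *Tgfb1* and *Tgfbi* r = 0.94. *Tgfbr3* had negative r with each other member, between -0.45 and -0.03. The libraries share the group difference, and these values over 6 points are a description. Of 10221 other genes compared, those nearest to *Tgfb1* were *C1qc*, a complement gene made by macrophages, *Stk3* and *Rasa3* (r = 0.999 each). Genes near to *Tgfbr2* included *Camk1* and *Prkd3*, and those nearest to *Tgfbr1* were *Copb2*, *Cdca4* and *Ctsc*. For *Tgfbi* they were *Creb3l2*, *Dtx4* and *Efemp1*, for *Tgfb2* *Rassf1*, *Pde8b* and *Heatr1*, and for *Smad3* *Zfp36l2*, *Furin* and *Pnrc2*. *Smad7* and *Tgfbr3* were nearest to *Lrp5* and *Orc6*, and genes near to *Tgfb3* included *Klhl28* and *Bmp4*.

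The rest of the pathway was followed in 91 other genes, 88 of them tested, in lists also chosen with earlier results of these data known. Of these, 21 were called lower and 3 higher, beside 5.36% and 8.03% of all genes tested, and their median log2 fold change was -0.47. No test was made between the lists. Without Nf1fl/fl;DhhCre replicate 1 only 7 were called, in a fit that called 362 genes over the whole series. Without Nf1fl/fl;DhhCre replicate 3 or double knockout replicate 2 there were 15. Each gene named below as lower or higher by adjusted p alone missed 0.05 in at least 1 such omission, with highest values between 0.0771 and 0.141.

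Of 12 genes that store and activate latent ligand, 6 were called lower, 6 were not called and none was called higher. Of all genes tested, 5.36% were called lower and 8.03% higher. *Ltbp1*, which tethers latent TGF-beta to the matrix, fell by 2.03 on the log2 scale (adjusted p = 0.00598, limma-voom), from between 330 and 350 CPM to between 62.1 and 97.6 CPM. *Fbn1*, the fibrillin to which it binds, fell by 1.56 (adjusted p = 0.0114), and *Ltbp4* fell by 1.38 (adjusted p = 0.0175). *Itgav*, an integrin chain of ligand activation, was lower by adjusted p alone (-0.83, adjusted p = 0.0254), and its partner *Itgb8* did not pass (-0.65, adjusted p = 0.0953). *Ltbp3* was also lower by adjusted p alone (-0.54, adjusted p = 0.0343). *Fbn1* lost its call without Nf1fl/fl;DhhCre replicate 1 (adjusted p = 0.0508), and *Ltbp4* without Nf1fl/fl;DhhCre replicate 3 (0.0618) or double knockout replicate 2 (0.0572).

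With TMM scaling and all libraries, limma-voom called no other receptor of the superfamily among the 10 tested, against 0 by edgeR and 1 by DESeq2. At an unadjusted p below 0.05, 2 were lower, beside 16.1% of all genes tested. The same 2 were below 0.05 by adjusted p, *Acvr1* (-0.74, adjusted p = 0.0172) and *Acvrl1* (-0.94, adjusted p = 0.0278), and *Bmpr2* did not pass (0.29, adjusted p = 0.220). *Acvrl1* was called by limma-voom with scaling by library size only (-1.02, adjusted p = 0.0228) and in 1 of the 6 fits that left out 1 library. Of 10 SMAD anchors and co-activators, limma-voom without sample weights and edgeR called 0 and DESeq2 called 2. With sample quality weights, limma-voom called 1. At an unadjusted p below 0.05, 6 were lower, beside the same 16.1%. *Sp1* (-0.50, adjusted p = 0.0251) and *Jun* (-0.52, adjusted p = 0.0324) were lower by adjusted p alone, and *Crebbp* did not pass (-0.26, adjusted p = 0.128). *Smad2*, the other receptor-activated SMAD of this branch, was at 153, 122 and 156 CPM against 132, 142 and 155 CPM, with overlap and a log2 fold change of 0.0027. *Smad9*, a SMAD of the BMP branch, rose by 2.65 (adjusted p = 0.00931), from 5.96 to 8.40 CPM to 31.2 to 64.4 CPM.

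Of 12 inhibitor and feedback genes, 5 were called lower and none higher, beside 5.36% and 8.03% of all genes tested. *Skil*, a SMAD co-repressor that is itself induced by the pathway, was at 223, 227 and 263 CPM against 77.5, 77.7 and 78.7 CPM, and fell by 1.60 on the log2 scale (SE 0.12, adjusted p = 0.00571, limma-voom). *Pmepa1*, an induced inhibitor that binds receptor-activated SMADs, fell by 1.12 (adjusted p = 0.00976), and its call was lost without Nf1fl/fl;DhhCre replicate 1 (adjusted p = 0.0501) and without Nf1fl/fl;DhhCre replicate 3 (log2 fold change -0.97). The matrix proteoglycan *Bgn*, which binds TGF-beta, fell by 2.16 (adjusted p = 0.00769). *Ppm1a*, a phosphatase of receptor-activated SMADs, went the other way by adjusted p alone, at 47.9, 52.2 and 46.5 CPM against 63.8, 100.7 and 80.1 CPM (log2 fold change 0.71, adjusted p = 0.0380). *Ski* did not pass (-0.37, adjusted p = 0.122).

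Of 16 matrix and contractile targets, 6 were called lower and 1, *Lox*, higher, beside 5.36% and 8.03% of all genes tested. *Postn* (periostin) fell by 2.15 (adjusted p = 0.0113), *Vcan* (versican) by a log2 fold change of -1.78 (adjusted p = 0.0108) and *Timp1* by one of -2.81 (adjusted p = 0.0119, limma-voom), each losing its call without Nf1fl/fl;DhhCre replicate 1 (adjusted p = 0.0541, 0.0518 and 0.0501). *Lox*, which encodes the collagen cross-linking enzyme lysyl oxidase, was at 39.9, 59.9 and 38.2 CPM against 203.5, 109 and 129 CPM and rose by 1.65 (adjusted p = 0.0132, limma-voom), a call lost without Nf1fl/fl;DhhCre replicate 1 (adjusted p = 0.0573). *Ctgf*, a widely used target gene of the pathway, did not pass with limma-voom, at 14.1, 84.2 and 25.8 CPM against 16.6, 9.29 and 5.88 CPM (adjusted p = 0.154, limma-voom). It was highest in Nf1fl/fl;DhhCre replicate 2, and the groups overlapped. Without that library its log2 fold change was -0.98. DESeq2 called it lower (log2 fold change -1.98, adjusted p = 0.00854), while over the other alternatives adjusted p was between 0.0878 and 0.351. The collagens *Col1a1*, *Col1a2* and *Col3a1* of this list, like *Dcn* among the inhibitors, are also in the fibroblast list given above. Of these, *Col1a2* and *Dcn* were called lower and so are counted in both lists. *Col3a1* (-0.9996, adjusted p = 0.0287) and *Col1a1* (-0.94, adjusted p = 0.0394) were lower by adjusted p alone, and *Acta2* did not pass (-0.67, adjusted p = 0.201). *Col3a1* was called in 3 of 7 other settings and in 2 of the 6 fits that left out 1 library. For *Col1a1* these were 1 of 7 and 1 of 6.

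**Figure D5:**
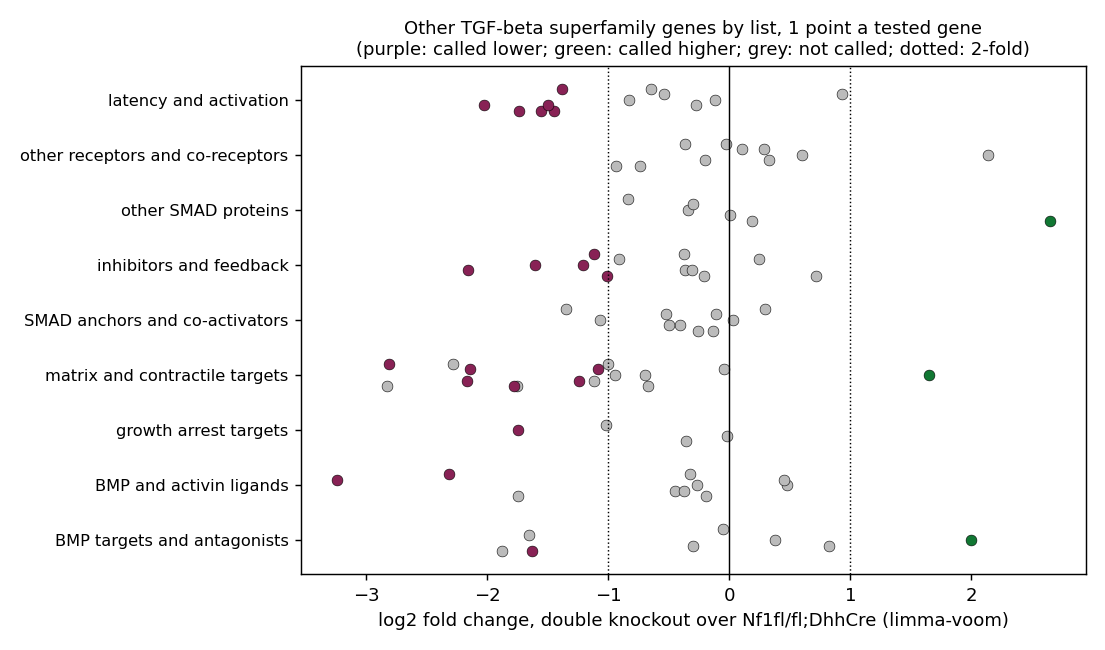
Each point is 1 tested gene of the 9 lists, placed by its log2 fold change on the horizontal axis, with called genes in purple (lower) or green (higher). Called genes lie mostly on the left in the latency, inhibitor and matrix lists, and none is called among the other receptors.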

How the data were processed

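Bulk RNA-seq of 6 mouse libraries was used. The authors amplified RNA with the NuGEN Ovation system, prepared Nextera XT libraries, aligned reads with TopHat (mm10) and counted reads per gene with featureCounts. The deposited values are raw counts, not normalized. Strandedness and the handling of multi-mapping reads are not given in the sources used here. For 3 related pairs of ligand genes the longest identical transcript run was 15 bases, and for *Smad3* with *Smad1* it was 24.

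After a low-count filter (filterByExpr, about 10 counts in a library of median size, reached in at least 3 libraries, and 15 in total) and TMM scaling, limma-voom was run in R 4.3.3 (edgeR 4.0.16, limma 3.58.1), with genotype as the only term and Benjamini-Hochberg adjustment over all genes tested. Calls needed adjusted p below 0.05 and a change over 2-fold. CPM per kb used the union of GENCODE M21 exons. The step was tested on simulated data. Alternatives included DESeq2 1.42.0 and leaving out each library. Replicates were compared, and no pair of libraries agreed within sampling noise.

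All members are reported. In each pathway list the text names up to 3 called genes and 2 with adjusted p below 0.05 alone by smallest adjusted p, and the highest-CPM gene that did not pass. *Ctgf* and *Lox* were named outside this rule. For each member the nearest genes by Pearson r (log2 CPM, mean at least 3) were listed. Some genes that meet these rules are not reported here. The members and lists were chosen with earlier results of these data known. Figures were drawn with matplotlib 3.10.9. Library titles and deposited tables give different mouse numbers within a genotype for some libraries, which leaves the genotype unchanged.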

Additional observations from a re-analysis of the deposited data

How the results depend on the processing

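Over 7 other settings with all libraries, 6 fits that each left out 1 library and 1 chosen after seeing the data that left out both muscle-rich libraries, no member changed direction, and 113 of 126 member results kept their call or lack of one by adjusted p and fold together. Of these, adjusted p alone crossed 0.05 for *Smad3* with DESeq2 (0.0402) and quality weights (0.0459), for *Smad7* with DESeq2 (0.0363) and for *Tgfbr2* without Nf1fl/fl;DhhCre replicate 1 (0.0611) or 3 (0.0507). *Tgfb1*, *Tgfbr1* and *Tgfbi* were called under each of the 7 settings. *Tgfb2* passed with DESeq2 (-1.06) and with sample quality weights (-1.16), *Tgfbr2* with scaling by library size only (-1.05), and both passed without the muscle-rich libraries (-1.24 and -1.02), where 5 members were called. Leaving out 1 library gave 1 to 5 members called, 362 to 2285 genes called and 7 to 25 pathway genes called, with log2 fold changes of -1.53 to -1.18 for *Tgfb1*, -1.28 to -0.77 for *Tgfb2*, -1.88 to -1.36 for *Tgfbr1* and -1.08 to -0.85 for *Tgfbr2*; the smallest counts came without Nf1fl/fl;DhhCre replicate 1. *Smad2*, at 0.0027 in the comparison given above, was negative with edgeR (-0.0062), DESeq2 (-0.016), DESeq2 size factors (-0.0067), library size only (-0.074), every gene with a count (-0.0067), quality weights (-0.080) and without the muscle-rich libraries (-0.094), and ranged from -0.070 to 0.11 when 1 library was left out. The cause of these changes was not tested. Scaling by library size only moved the median of all genes to -0.06. No paired analysis was possible because the replicate numbers were given here in the order of the labels and pair no mice.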

Other observations

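In the activin and BMP branches of the superfamily, 2 of 10 tested ligand genes were called lower and none higher, beside 5.36% lower and 8.03% higher of all genes tested. *Inhba*, which encodes the activin A subunit, was at 107, 139 and 236 CPM in Nf1fl/fl;DhhCre and at 17.0, 13.1 and 18.2 CPM in double knockout, and its call held whichever 1 of the 6 libraries was omitted. *Inhba* fell by 3.24 on the log2 scale (SE 0.36, adjusted p = 0.00764, limma-voom with Benjamini-Hochberg adjustment). *Inhbb*, the activin B subunit, was at 6.45, 12.5 and 9.04 CPM against 0.638, 2.88 and 2.90 CPM (log2 fold change -2.31, adjusted p = 0.0366), and was called in 0 of the 6 such fits (adjusted p from 0.0590 to 0.0900). *Bmp7*, at 79.5 to 122 CPM against 73.3 to 97.0 CPM, did not pass (adjusted p = 0.293).

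Against the same shares, of 8 tested BMP targets and antagonists, *Id4* was called higher (3.33, 2.09 and 1.73 CPM against 7.49, 7.48 and 12.9 CPM, log2 fold change 1.997, adjusted p = 0.0194, limma-voom) and *Id2* lower (35.0, 14.8 and 20.3 CPM against 7.09, 5.02 and 9.11 CPM, log2 fold change -1.63, adjusted p = 0.0371, limma-voom). *Fstl1* did not pass (log2 fold change 0.38, adjusted p = 0.293). Of the 6 fits that left out 1 library, *Id2* kept its call only without Nf1fl/fl;DhhCre replicate 2 (adjusted p between 0.0663 and 0.116 in the others). *Id4* lost its call without Nf1fl/fl;DhhCre replicate 1 (adjusted p = 0.0567), without replicate 3 of that group (0.0574) and without both muscle-rich libraries (0.0509). Among 4 growth arrest targets, against the same shares, *Cdkn2b*, a cyclin-dependent kinase inhibitor induced by TGF-beta, was called lower, at 19.6, 10.2 and 16.4 CPM against 4.70, 4.36 and 4.09 CPM (log2 fold change -1.74, adjusted p = 0.0200, limma-voom), and kept its call without Nf1fl/fl;DhhCre replicate 2 or double knockout replicate 1 (adjusted p between 0.0573 and 0.0654 in the other 4 fits). *Cdkn1a* did not pass (-0.36, adjusted p = 0.150).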
